A study of Homo sapiens with 96 samples.

Results

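Genes of glycolysis and of the transcriptional response to low oxygen were followed in 4 human B-cell lymphoma lines exposed to antibodies. The 40 genes were listed by symbol and were taken with every array probe set annotated to 1 of them alone. 37 of them had such a probe set, 82 probe sets in all, out of 19775 genes on the array. SLC16A1 and SLC16A3, carriers that export lactate, and CA9, a carbonic anhydrase, were not matched to a probe set by symbol and are not analysed here.

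The lines were SUDHL4 and OciLy18, from diffuse large B-cell lymphoma, and Z138 and REC1, from mantle cell lymphoma. Cells were left untreated or were given an antibody for 4 h, at 10 µg/ml according to the labels, and RNA was measured on 96 whole-transcriptome arrays, 3 for each of 32 groups. Antibodies against CD20, a surface protein of B cells, were rituximab, the murine antibody LT20 and, in REC1 only, the F(ab')2 fragment of rituximab, which lacks the Fc part. The B-cell receptor was bound with anti-IgM, its F(ab')2 fragment or anti-IgG, and a human isotype antibody served as the control antibody.

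Each antibody was compared with the untreated Control arrays 1 to 3 of its line. Anti-IgG in SUDHL4, OciLy18 and Z138 had control arrays of its own, Control 4 to 6. All antibodies with the same control triplicate share those arrays, so their values are set side by side without a measure of likeness. Each line is a single established culture grown without stroma, the methods give the anti-IgM fragment at a lower mass dose than the whole antibody, and nothing says that the 3 arrays of a group came from separate cultures. The p-values therefore measure the spread between these arrays, which may be technical.

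Glycolysis turns glucose into pyruvate in the cytosol, and lactate dehydrogenase lets it run without oxygen. When oxygen is low, the HIF1A protein escapes hydroxylation by the EGLN enzymes, pairs with ARNT and binds short DNA elements near glucose carriers, glycolytic enzymes, mitophagy receptors and growth factors such as VEGFA. Activated B cells are also known to raise glucose uptake in normal oxygen, through the receptor and its downstream kinases.

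The promoter sequences of 6 of the genes past 2-fold, chosen after their values were seen, are shown because the HIF element contains the letters ACGTG or GCGTG. These are the 300-base windows around the RefSeq gene start in GRCh38.p14, written 5′ to 3′ on the strand of the gene, with every match to ACGTG or GCGTG on either strand in capitals. The letters CACGTG hold ACGTG on both strands and were counted on each.
ANKRD37, chr4:185396591-185396890, plus strand: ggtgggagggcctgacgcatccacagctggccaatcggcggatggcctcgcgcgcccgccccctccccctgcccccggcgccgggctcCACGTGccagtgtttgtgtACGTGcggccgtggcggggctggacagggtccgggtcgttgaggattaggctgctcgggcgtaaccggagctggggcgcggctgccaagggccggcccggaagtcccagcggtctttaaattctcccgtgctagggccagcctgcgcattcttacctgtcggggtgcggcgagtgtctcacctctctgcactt
P4HA1, chr10:73096817-73097116, minus strand: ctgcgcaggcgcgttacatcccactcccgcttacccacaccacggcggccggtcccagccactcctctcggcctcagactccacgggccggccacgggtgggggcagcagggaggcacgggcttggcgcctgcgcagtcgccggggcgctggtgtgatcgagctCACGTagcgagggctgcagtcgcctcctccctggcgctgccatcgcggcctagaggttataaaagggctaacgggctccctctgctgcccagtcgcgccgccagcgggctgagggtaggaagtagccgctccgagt
BNIP3, chr10:131981874-131982173, minus strand: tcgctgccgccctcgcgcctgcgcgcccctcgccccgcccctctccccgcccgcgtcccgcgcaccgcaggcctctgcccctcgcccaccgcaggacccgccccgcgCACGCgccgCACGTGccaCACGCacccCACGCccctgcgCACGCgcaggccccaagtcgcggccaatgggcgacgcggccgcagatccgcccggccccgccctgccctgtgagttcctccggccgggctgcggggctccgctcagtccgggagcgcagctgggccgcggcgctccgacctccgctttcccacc
HK2, chr2:74834920-74835219, plus strand, 1 of its 2 windows: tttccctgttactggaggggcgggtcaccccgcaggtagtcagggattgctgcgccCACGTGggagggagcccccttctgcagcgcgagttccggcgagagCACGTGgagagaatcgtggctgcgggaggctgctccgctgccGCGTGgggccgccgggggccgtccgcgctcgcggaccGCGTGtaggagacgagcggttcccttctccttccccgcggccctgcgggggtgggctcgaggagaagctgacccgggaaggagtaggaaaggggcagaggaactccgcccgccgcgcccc
ADM, chr11:10304823-10305122, plus strand: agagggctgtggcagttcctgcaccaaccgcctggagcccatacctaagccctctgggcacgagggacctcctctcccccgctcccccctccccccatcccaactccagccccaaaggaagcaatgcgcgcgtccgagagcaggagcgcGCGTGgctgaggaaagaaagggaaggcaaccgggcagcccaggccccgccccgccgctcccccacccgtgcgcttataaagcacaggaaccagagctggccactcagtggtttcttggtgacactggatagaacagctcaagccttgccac
P4HA2, chr5:132227042-132227341, minus strand: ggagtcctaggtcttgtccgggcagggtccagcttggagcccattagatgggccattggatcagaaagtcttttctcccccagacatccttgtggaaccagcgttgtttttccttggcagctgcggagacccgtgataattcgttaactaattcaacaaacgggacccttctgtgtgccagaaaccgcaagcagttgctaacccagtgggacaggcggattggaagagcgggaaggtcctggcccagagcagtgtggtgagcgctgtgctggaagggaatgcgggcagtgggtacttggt
The HK2 window shown held 4 matches to ACGTG and 2 to GCGTG, and its other window, chr2:74833877-74834176, held 2 and 1. The window of BNIP3 held 2 and 4, that of ANKRD37 3 and 0, that of P4HA1 1 and 0 and that of ADM 0 and 1. The P4HA2 window held neither word. RefSeq windows were matched for 35 of the 40 genes, and SLC2A3, BNIP3L, VEGFA, NDRG1 and SLC16A1 were not among them. ACGTG was found in 39.7% of the 63 windows of the listed genes and in 21.4% of 35116 windows of all genes, and GCGTG in 42.9% and 36.5%. A match describes the letters of the window and is not evidence of a bound site.

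The signals of every array summed to between 8528610 and 8530010, since the arrays had been scaled to a common total. Array medians ran from 8.5 to 20.24, no pair of arrays held identical values, and the lowest correlation between arrays of a group was 0.93. In untreated cells 4 of 4 B-cell markers exceeded 100 in every line, at 414 to 4216. Markers of T cells, monocytes and NK cells stayed below 100 with 1 exception, CD3D at 1353 in REC1, where CD3E was at 62.2 and CD2 at 20.3. The log2 ratio of 3′ to 5′ ACTB probe sets averaged 1.10 in Z138 Control 1 to 3, 0.61 in Control 4 to 6 and 0.47 after anti-IgG, so the control triplicates differed in this measure of RNA integrity. Its part in the results was not tested. A group difference is in signal per array, and fewer cells of a kind cannot be told apart from less RNA per cell.

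A gene entered the test of a line when the mean of at least 1 group there exceeded 100. It was counted as risen or fallen past 2-fold when the adjusted p of limma was below 0.05 and 1 of the 2 group means exceeded 100. The adjustment was that of Benjamini-Hochberg, taken over all probe sets tested in the comparison. Counts at any fold use the same p and level. Of the 37 genes, 31 entered in SUDHL4, 31 in OciLy18, 28 in Z138 and 30 in REC1, among 7177, 7780, 7603 and 7804 genes. Some entered only through a treated group and had to differ to be included, namely SLC2A3, ALDOC, ENO2 and ANKRD37 in SUDHL4, SLC2A3, NDRG1 and ADM in OciLy18, SLC2A3 in Z138 and SLC2A3, PDK1, ANKRD37 and ADM in REC1. The counts that include them are descriptions, and counts over the genes above 100 in an untreated group, chosen after seeing the data, stand beside them. PFKFB4, which sets the level of an activator of phosphofructokinase, EGLN3, a HIF prolyl hydroxylase, and PLOD2, a collagen lysyl hydroxylase, entered in no line, with highest group means of 51.1, 77.9 and 10.96.

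Of the 34 genes tested in 1 line or more, 16 passed 2-fold after at least 1 of the 21 treatments other than isotype, and 18 after none. SLC2A3, which encodes the glucose carrier GLUT3, rose past 2-fold after 11 of 21 treatments, in all 4 lines, and in each it was among the genes that entered through treated groups alone. The other genes past 2-fold are given by line. P4HA1, ANKRD37, KDM3A and ALDOC rose and MXD3 fell in SUDHL4, P4HA2 and PFKM fell and NDRG1 and ADM rose in OciLy18, ADM and HK1 rose in Z138, and HK2, PFKP, ADM, ANKRD37 and VEGFA rose while BNIP3 and BNIP3L fell in REC1. At any fold P4HA1 was higher after 12 of the 21 treatments and lower after 2, and HK1 was higher after 12 and lower after 0. Against isotype in REC1, P4HA1 kept its sign but not adjusted p below 0.05 after LT20 (log2 0.32), rituximab (0.40) and its fragment (0.27). The same held there for HK1 after rituximab (0.14) and its fragment (0.30). P4HA1 after the anti-IgM fragment in Z138 was at log2 -0.0013 against the other control triplicate. These counts thus rest in part on the reference arrays, and no share of all genes stands beside them. After anti-IgM, P4HA1 in REC1 had a log2 change of 0.96, beside 0.33 after isotype. HK1 in OciLy18 was at 0.76 after anti-IgM (adjusted p = 0.00398994).

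**Figure D1:**
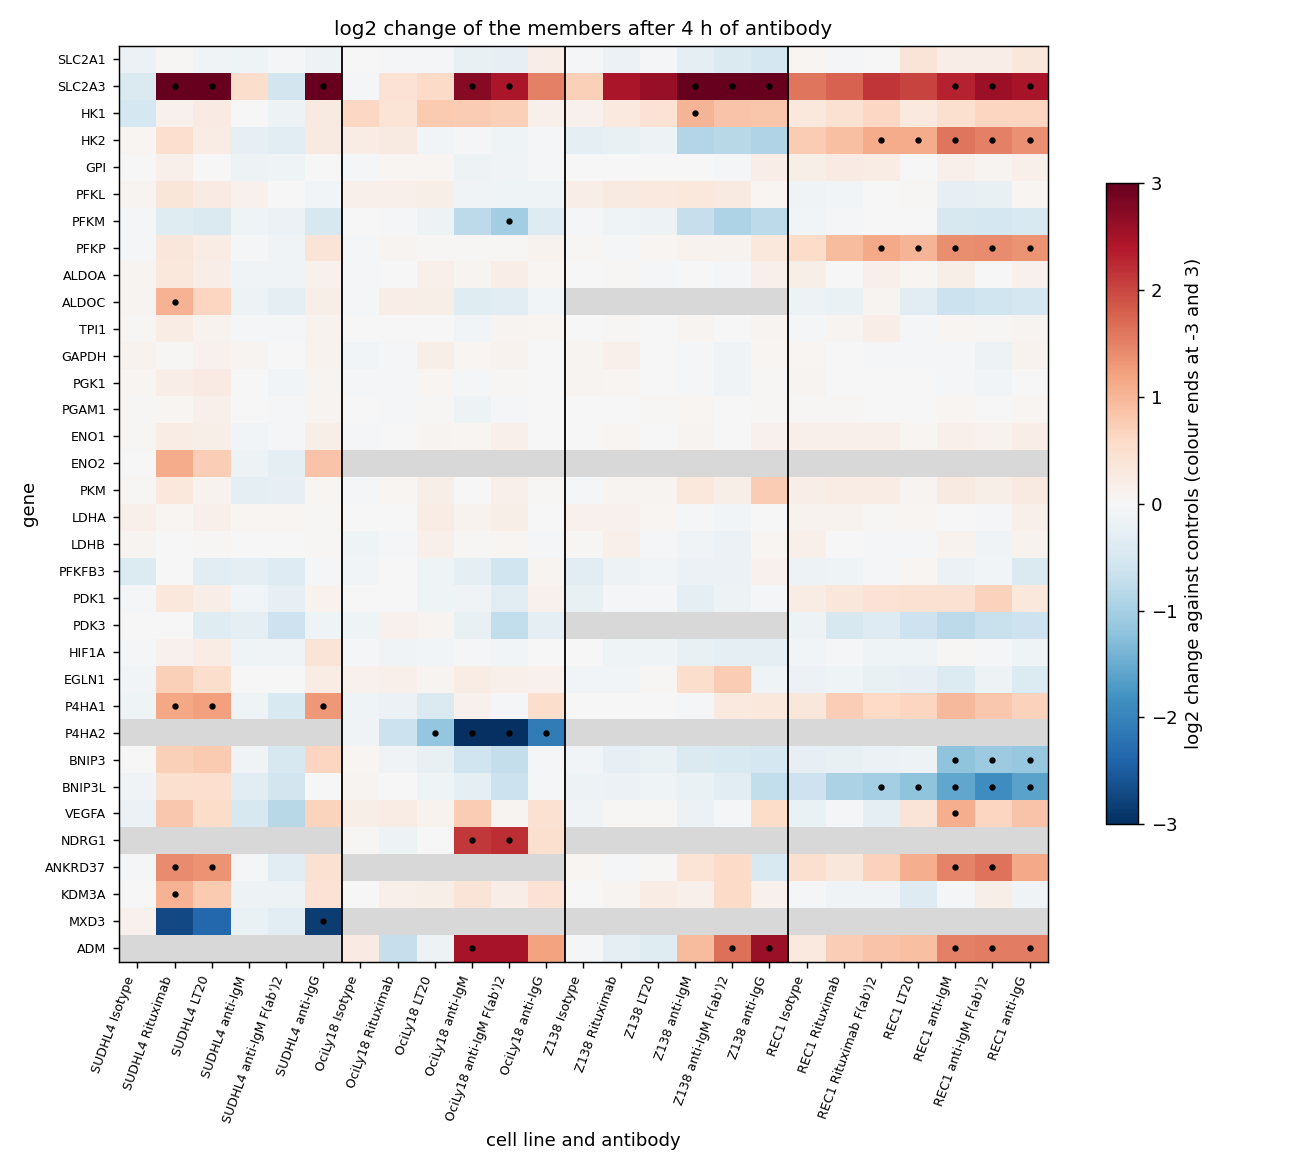
Log2 change against the controls for the 34 genes tested (rows) in 25 comparisons of cell line and antibody (columns), red for higher and blue for lower signal, grey where the gene was not tested in that line. Dots mark the 54 changes past 2-fold, 11 of them in the row of SLC2A3, while the rows from GAPDH to ENO1 stay pale throughout.

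In SUDHL4, SLC2A3 read 5.88, 6.70 and 3.04 in Control 1 to 3 and 8.65, 1.94 and 2.83 after isotype, values near the bottom of the scale. It read 163, 128 and 195 after rituximab and 115, 121 and 172 after LT20. After anti-IgG it read 125, 131 and 155, against 3.05, 9.39 and 9.86 in Control 4 to 6. Every array of these 3 treatments lay above every control, isotype and anti-IgM array, as the plot of SLC2A3 by line shows. The log2 change was 5.02 ± 0.47 (SE, n = 3 arrays a group) after rituximab, 32.4-fold with adjusted p = 2.63951e-09, and 27.1-fold after LT20 and 20.8-fold after anti-IgG. These folds rest on control signals under 10, and with 16 added to each signal the log2 changes were 3.06, 2.83 and 2.72. After anti-IgM the gene read 6.88, 4.78 and 10.8, and after the fragment 1.99, 3.99 and 4.83, both overlapping the controls.

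In OciLy18, SLC2A3 read 15.3, 29.5 and 16.2 in Control 1 to 3 and 137, 131 and 121 after anti-IgM, a log2 change of 2.74 ± 0.25 (6.69-fold, adjusted p = 3.06601e-09). The fragment gave 90.5, 118 and 110 (5.44-fold). Both groups lay apart from the controls. Anti-IgG gave 91.6, 87.1 and 121 against 49.6, 34.1 and 24.5 in Control 4 to 6, 2.86-fold with adjusted p = 5.17635e-05, and its mean of 99.97 fell just short of the level needed to be counted. After rituximab the arrays read 31.9, 25.6 and 22.0, overlapping the controls (adjusted p = 0.370028).

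In Z138, SLC2A3 read 18.1, 11.9 and 3.95 in Control 1 to 3, 154, 165 and 142 after anti-IgM and 137, 142 and 149 after the fragment. The log2 changes were 4.02 ± 0.35 and 3.91, or 16.2-fold and 15.1-fold (adjusted p = 3.30142e-09 and 2.58167e-09). The highest level of the series followed anti-IgG, at 359, 315 and 315 against 62.3, 30.7 and 28.4 in Control 4 to 6 (8.68-fold, adjusted p = 9.13169e-08). The 2 control triplicates themselves differed 4.00-fold, with adjusted p = 9.68842e-05. Rituximab and LT20 gave means of 52.3 and 57.8, 5.44-fold and 6.07-fold over Control 1 to 3 and below the level to be counted.

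In REC1, SLC2A3 read 16.7, 21.3 and 25.8 in the controls and 42.0, 83.2 and 72.9 after isotype, 3.03-fold higher with adjusted p = 1.871e-05 and a mean of 66.0. It read 107, 107 and 97.4 after anti-IgM, 120, 125 and 129 after the fragment and 139, 125 and 90.1 after anti-IgG. All 9 arrays lay above the isotype arrays. Against the untreated controls these were 4.96-fold, 5.96-fold and 5.55-fold, and against isotype the log2 changes were 0.71 (adjusted p = 0.0108408), 0.98 and 0.87. LT20, rituximab and its fragment gave 4.07-fold, 3.42-fold and 4.46-fold over the controls with all means below 100.

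**Figure D2:**
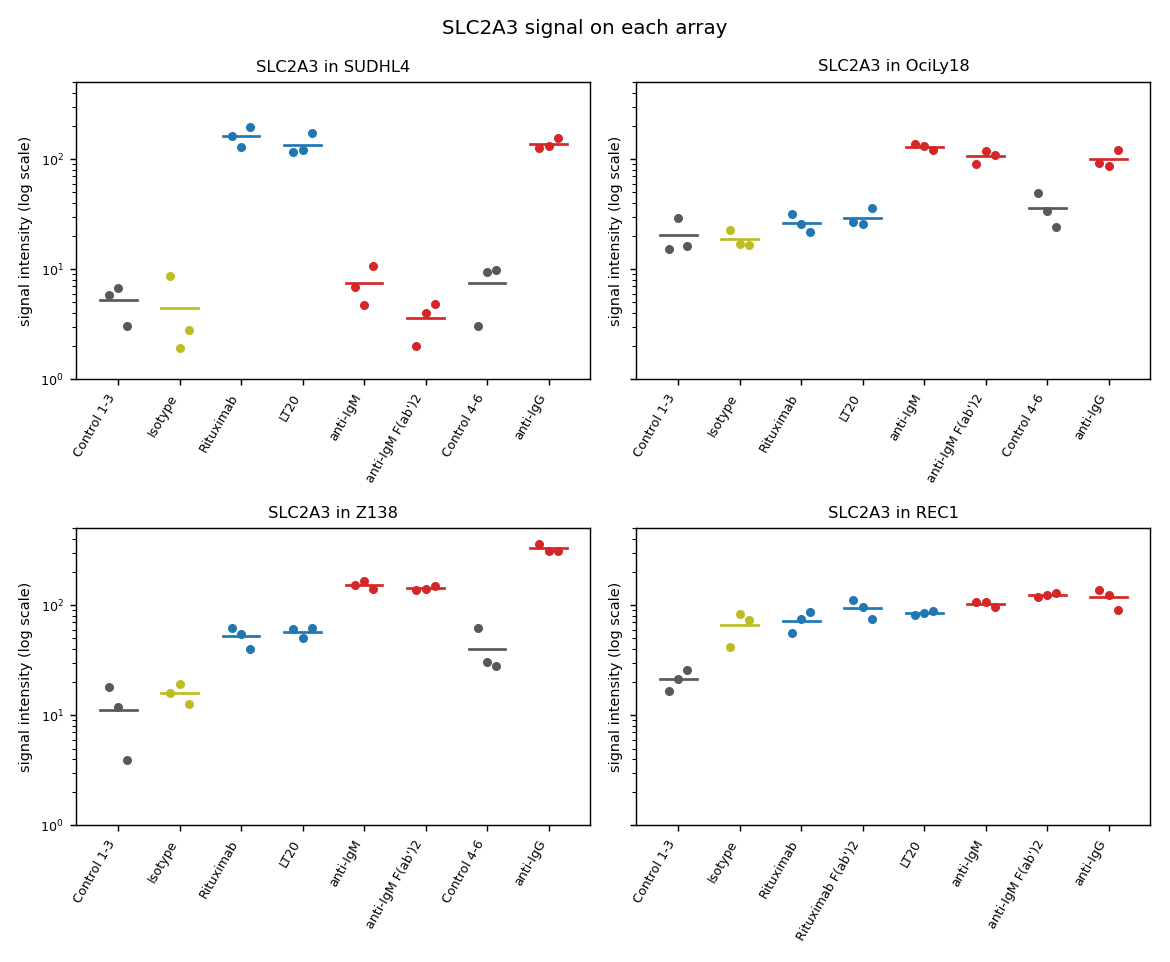
SLC2A3 signal intensity on each array (points, log scale) in the 4 lines, with the mean of the 3 arrays of a group as a bar, grey for controls, yellow for isotype, blue for anti-CD20 and red for anti-receptor antibodies. In SUDHL4 the rituximab, LT20 and anti-IgG arrays sit between 115 and 195 and every other array under 11, while in Z138 anti-IgG reached 315 to 359.

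The SLC2A3 values come from a probe set whose design marks it as able to bind related transcripts. A second SLC2A3 probe set gave 40.8-fold, 37.4-fold and 23.1-fold in SUDHL4 after rituximab, LT20 and anti-IgG. The near-identical gene SLC2A14 shares further probe sets with SLC2A3, so signal of the pair cannot be fully separated. SLC2A1, which encodes the widely used carrier GLUT1, changed past 2-fold after no treatment, with log2 changes from -0.53 after anti-IgG in Z138 to 0.38 after LT20 in REC1.

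In SUDHL4 both CD20 antibodies and anti-IgG raised listed genes, and anti-IgM did not. After rituximab 5 of 31 genes tested, 16.1%, rose past 2-fold and none fell, while 2.34% of all genes tested rose and 5.03% passed in either direction. After LT20 it was 3 genes, 9.68%, against 2.05% of all genes rising and 5.82% in either direction, and after anti-IgG 2 rose and 1 fell, 9.68% against 7.27% of all genes. At any fold 20 of 31 rose and 1 fell after rituximab, where 18% of all genes rose, and 17 rose and 2 fell after LT20, where 16.3% of all genes rose. The median log2 change of the genes was 0.31 after rituximab, beside -0.05 over all genes tested. SLC2A3, ALDOC and ANKRD37, 3 of the 5 that rose past 2-fold, had entered through treated groups alone. Of the 27 listed genes above 100 in untreated arrays, 2 rose past 2-fold after rituximab, 7.41% against 1.37% of all such genes, and 1 after LT20, 3.7% against 1.21%. After anti-IgG 1 of the 27 rose and 1 fell. That was 7.41% against 6.37% of all such genes in either direction, near that share. At any fold 17 and 14 of the 27 rose after rituximab and LT20, where 17.1% and 15.3% of all such genes rose. Set against Control 4 to 6, 4 of the 21 genes that differed at any fold after rituximab, ENO1, GPI, PFKP and PKM, had the opposite sign, and 4 of 19 after LT20. ALDOA, PFKL, PGK1 and TPI1 after rituximab kept their sign there but not adjusted p below 0.05. The same held for PFKL, PGAM1 and VEGFA after LT20. The median log2 change of the 17 glycolytic enzymes was 0.22 after rituximab and 0.21 in untreated Control 4 to 6 against Control 1 to 3, so these small rises rest on the control triplicate. The log2 3′ to 5′ ACTB ratio was 0.401 to 0.503 in Control 1 to 3, 0.308 to 0.370 after rituximab, 0.353 to 0.549 after LT20, 0.558 to 0.656 after anti-IgM and 0.594 to 0.769 after its fragment, and no anti-CD20 array reached the anti-IgM arrays. Its part in the results was not tested.

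P4HA1, a catalytic subunit of the collagen prolyl hydroxylase that also needs oxygen as substrate, read 208, 206 and 246 in Control 1 to 3. It read 498, 386 and 610 after rituximab and 538, 468 and 551 after LT20, and 415, 437 and 461 after anti-IgG against 167, 194 and 176 in Control 4 to 6. No treated array fell to the level of a control. The changes were 2.23-fold (log2 1.16 ± 0.12, adjusted p = 2.18784e-08), 2.36-fold (adjusted p = 5.79406e-09) and 2.45-fold (adjusted p = 2.19325e-09).

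ANKRD37, a small ankyrin-repeat protein known as a HIF target, read 92.1, 101 and 101 in Control 1 to 3, 235, 192 and 396 after rituximab and 191, 235 and 343 after LT20. These were rises of 2.66-fold (log2 1.41 ± 0.20, adjusted p = 1.37714e-06) and 2.54-fold. After anti-IgG it read 78.2, 89.2 and 112 against 64.1, 66.8 and 72.0, with every mean under 100. KDM3A, a histone demethylase induced by HIF, rose after rituximab from 275, 250 and 309 to 473, 492 and 787, 2.05-fold (log2 1.04 ± 0.15, adjusted p = 1.79724e-06), and was 1.72-fold higher after LT20. ALDOC, an aldolase isozyme, rose from 81.3, 77.5 and 86.2 to 160, 141 and 211 after rituximab, 2.06-fold with adjusted p = 3.44408e-06. The third rituximab array was the highest for each of these genes, and without it KDM3A and ALDOC were at log2 changes of 0.80 and 0.88, so that 3 genes passed 2-fold.

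The mitophagy receptor BNIP3 was raised less but evenly in SUDHL4. Its signals were 1095, 1080 and 1104 in Control 1 to 3, 1748, 1726 and 1961 after rituximab and 1826, 1879 and 1907 after LT20, or 1.65-fold and 1.71-fold (adjusted p = 6.06017e-10 and 1.64203e-10). After anti-IgG they were 1339, 1338 and 1402 against 894, 919 and 812 (1.56-fold, adjusted p = 3.89853e-09). A second BNIP3 probe set gave 2.04-fold after rituximab (adjusted p = 3.86365e-10), which is past 2-fold, 1.97-fold after LT20 and 1.77-fold after anti-IgG. VEGFA, the vascular growth factor, read 230, 208 and 262 in Control 1 to 3 and 357, 372 and 513 after rituximab (1.76-fold, adjusted p = 3.95444e-05), and 554, 547 and 460 after anti-IgG against 311, 320 and 346 (1.59-fold, adjusted p = 0.000319115). None of these arrays overlapped its controls.

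**Figure D3:**
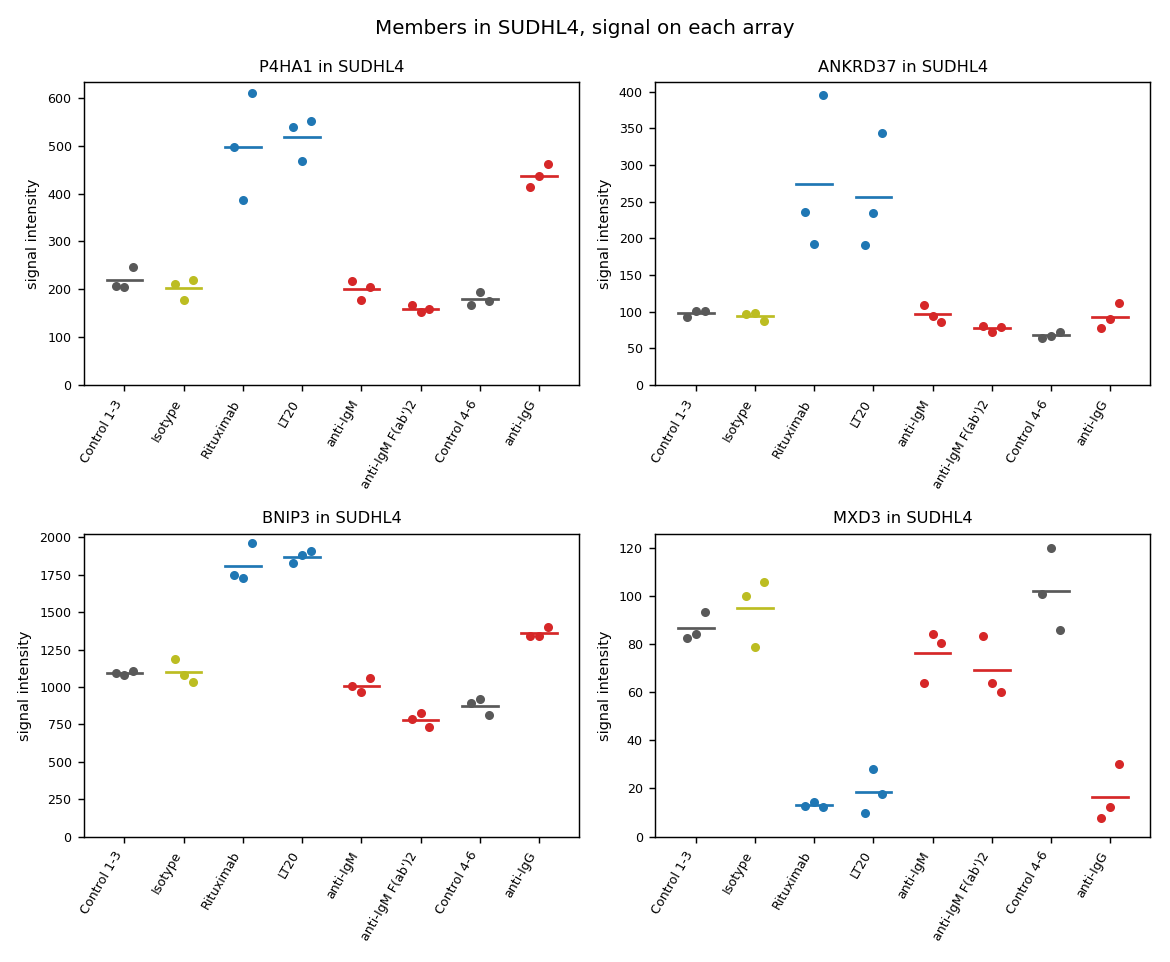
Signal intensity on each SUDHL4 array (points) for P4HA1, ANKRD37, BNIP3 and MXD3, with the mean of 3 arrays as a bar, by group, grey for controls, yellow for isotype, blue for anti-CD20 and red for anti-receptor antibodies. P4HA1 and BNIP3 are raised after rituximab, LT20 and anti-IgG and not after anti-IgM, and MXD3 falls from 82.3 to 120 in the controls to 30.1 or less after the same 3 antibodies.

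MXD3, a MAX-binding repressor, was the listed gene counted as fallen past 2-fold in SUDHL4. It read 101, 120 and 85.8 in Control 4 to 6 and 7.72, 12.2 and 30.1 after anti-IgG, 7.16-fold lower (log2 -2.84 ± 0.33, adjusted p = 8.45416e-08), or -1.90 on the log2 scale with 16 added. Control 1 to 3 read 82.3, 84.2 and 93.3, rituximab 12.8, 14.3 and 12.5 and LT20 9.62, 27.9 and 17.8. The drops of 6.57-fold and 5.13-fold (adjusted p = 2.37472e-07 and 1.76588e-06) were not counted because no group mean there reached 100. The fall after anti-IgG was counted only because the mean of Control 4 to 6, at 102, lay just above that level.

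ENO2, the neuronal enolase isozyme, had a log2 change of 1.11 after rituximab with both means under 100, and was 1.80-fold higher after anti-IgG, and its own control triplicates differed 2.43-fold. HK2 had a log2 change of 0.52 and EGLN1 of 0.71 after rituximab. PFKM, the muscle subunit of phosphofructokinase, was lower by log2 -0.36, -0.43 and -0.48 after rituximab, LT20 and anti-IgG.

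Against this, anti-IgM and its fragment moved no listed gene past 2-fold in SUDHL4, where 0.0139% and 0.251% of all genes passed. At any fold 3 genes were lower after anti-IgM (9.68%, against 4.89% of all genes) and 8 after the fragment (25.8%, against 11.9%), and none was higher. Set against Control 4 to 6, BNIP3L after anti-IgM (log2 0.0302) and PDK1 (0.0602) and PDK3 (0.53) after the fragment had the opposite sign. P4HA1 (-0.16) and BNIP3L (-0.20) after the fragment kept their sign there but not adjusted p below 0.05. All of these falls rest on the control triplicate. The clearest fall was that of VEGFA after the fragment, at 134, 131 and 128, which is 1.77-fold below Control 1 to 3 (adjusted p = 0.000123559). Against Control 1 to 3, BNIP3 and P4HA1 had log2 changes of -0.48 and -0.46 after the fragment, the sign opposite to that after rituximab. Isotype moved none at any fold, as was true of all genes (0%). Set against Control 4 to 6 instead, 9 genes passed after rituximab and 6 after LT20. The share of all genes was not counted with that reference, so nothing is read from these counts.

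In OciLy18 the listed genes moved with anti-receptor antibodies rather than with rituximab. After anti-IgM 3 of 31 rose and 1 fell, 12.9% against 3.62% of all genes, and after the fragment 2 rose and 2 fell, 12.9% against 4.14%. Anti-IgG and LT20 each lowered 1 gene, 3.23%, against 0.373% and 0.0643% of all genes lowered and 1.4% and 0.09% in either direction, and rituximab and isotype moved none, beside 0% of all genes for either. At any fold 7 rose and 8 fell after anti-IgM, 48.4% against 47.5% of all genes. The genes that rose past 2-fold, SLC2A3, NDRG1 and ADM, were those that had entered through treated groups alone. Of the 28 listed genes above 100 in untreated arrays, none rose past 2-fold after either antibody, 1 fell after anti-IgM and 2 after the fragment, 3.57% and 7.14% against 2.65% and 3.27% of all such genes.

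Among listed genes whose controls averaged above 100, the largest change was the fall of P4HA2, the other catalytic subunit of the collagen hydroxylase. It read 749, 775 and 720 in Control 1 to 3 and 724, 669 and 705 after isotype. It read 81.9, 82.7 and 85.9 after anti-IgM and 92.3, 87.6 and 92.1 after the fragment, 8.96-fold and 8.25-fold lower (log2 -3.16 ± 0.07 and -3.04, adjusted p = 7.51585e-21 and 1.80964e-20). After anti-IgG it read 144, 143 and 135 against 574, 580 and 641 in Control 4 to 6, 4.25-fold lower with adjusted p = 6.71565e-17. LT20 gave 317, 361 and 336, 2.22-fold lower (adjusted p = 1.21834e-10), and rituximab 492, 494 and 448, 1.57-fold lower (adjusted p = 3.72034e-06). All 5 treatments lay below every untreated and isotype array. A second P4HA2 probe set gave 5.98-fold, 6.63-fold, 3.15-fold, 1.80-fold and 1.45-fold lower signals for anti-IgM, the fragment, anti-IgG, LT20 and rituximab. In the other 3 lines P4HA2 had no group mean above 100 and was not tested.

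NDRG1, a stress-response protein raised by low oxygen, read 23.9, 30.5 and 32.4 in Control 1 to 3, 123, 120 and 132 after anti-IgM and 132, 129 and 137 after the fragment. The rises were 4.35-fold (log2 2.12 ± 0.20, adjusted p = 5.74286e-09) and 4.63-fold (adjusted p = 2.51495e-09), and after anti-IgG the arrays read 24.2, 43.6 and 35.4. ADM, the precursor of the vasodilator peptide adrenomedullin, read 21.0, 19.3 and 14.3 in the controls and 115, 96.3 and 90.8 after anti-IgM, 5.58-fold higher (log2 2.48 ± 0.33, adjusted p = 1.28092e-06). After the fragment it read 87.7, 102 and 108, with a mean of 99.4 that missed the level to be counted. PFKM fell from 1161, 1095 and 1152 to 559, 556 and 546 after the fragment (2.05-fold, log2 -1.04 ± 0.05, adjusted p = 2.1634e-13) and to 619, 653 and 697 after anti-IgM (1.73-fold). In none of these 3 genes did a counted group overlap its controls.

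**Figure D4:**
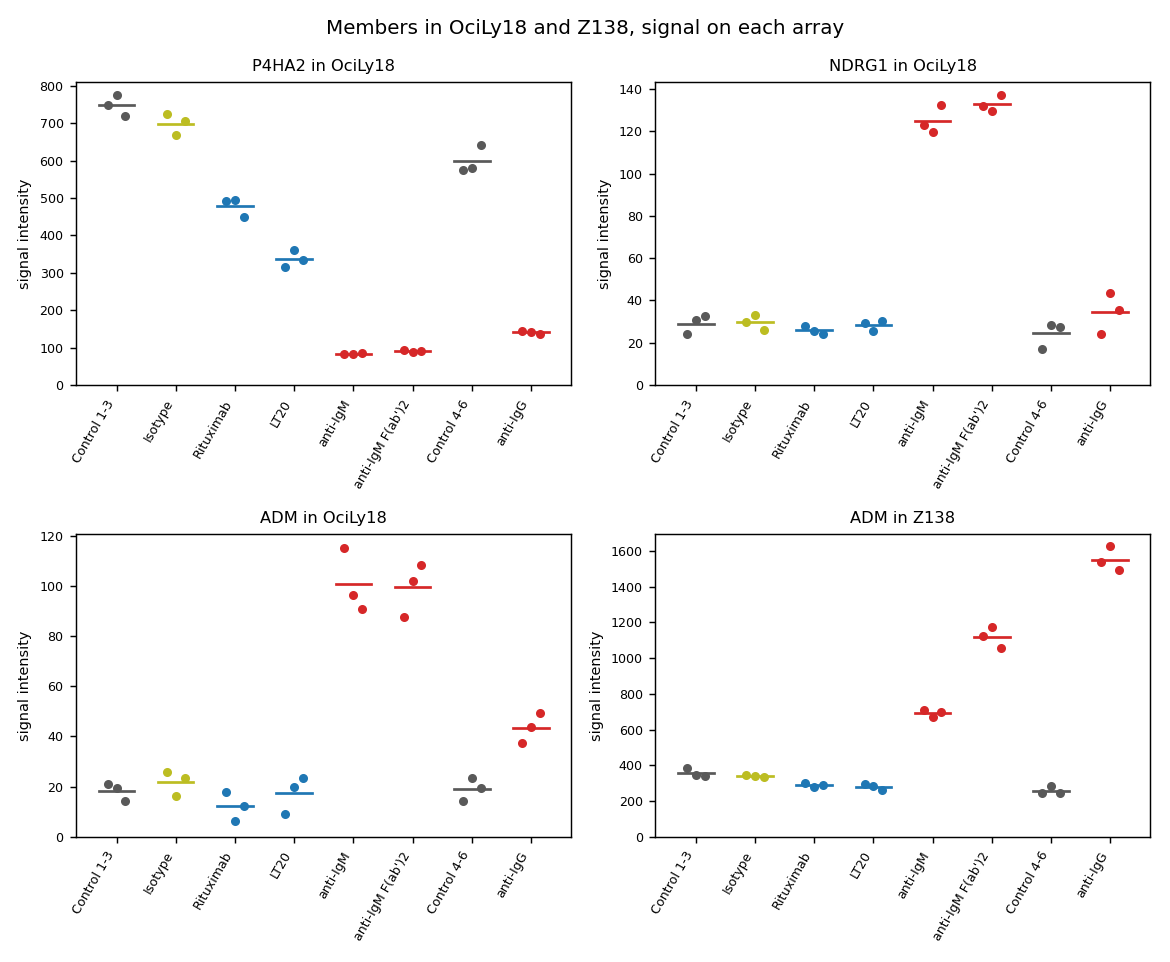
Signal intensity on each array (points) with the mean of 3 arrays as a bar, for P4HA2, NDRG1 and ADM in OciLy18 and for ADM in Z138, by group, coloured as controls (grey), isotype (yellow), anti-CD20 (blue) and anti-receptor (red). P4HA2 falls from above 570 in the controls to 81.9 to 144 after the 3 anti-receptor antibodies, and ADM in Z138 climbs to 1492 to 1626 after anti-IgG.

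VEGFA and BNIP3 in OciLy18 depended on the control triplicate as much as on the antibody. VEGFA read 243, 278 and 234 in Control 1 to 3, 420, 416 and 438 after anti-IgM (1.69-fold, adjusted p = 3.06616e-09) and 252, 280 and 262 after the fragment. The fragment lay 1.61-fold below the whole antibody (log2 -0.68, adjusted p = 1.39594e-06). Control 4 to 6, with no antibody, read 449, 492 and 474, above every treated array named here. Set against those arrays, VEGFA after anti-IgM was at log2 -0.15 (adjusted p = 0.0604738), opposite in sign, so no direction is given for it. BNIP3 read 592, 648 and 596 in Control 1 to 3 and 1192, 1070 and 1197 in Control 4 to 6, 1.88-fold higher, and 1134, 1098 and 1157 after anti-IgG. Against its own controls BNIP3 was 1.51-fold lower after anti-IgM, at 424, 388 and 405 (adjusted p = 3.68449e-08).

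In Z138, 2 of 28 listed genes tested rose after each of anti-IgM, its fragment and anti-IgG, 7.14% in every case, and none fell past 2-fold. Of all genes, 1.95%, 2.46% and 2.99% rose and 2.95%, 4.68% and 5.5% passed in either direction. Rituximab, LT20 and isotype moved none, beside 0.105%, 0.145% and 0% of all genes. SLC2A3 was 1 of the genes after all 3 antibodies, and without it 1 of 27 rose in each, 3.7%. Of all genes above 100 in untreated arrays, 1.33%, 1.65% and 1.73% rose after anti-IgM, the fragment and anti-IgG. In either direction 2.38%, 3.99% and 4.38% of them passed, so 3.7% is near that share. ADM was already high in this line, at 387, 344 and 341 in Control 1 to 3, and read 709, 671 and 701 after anti-IgM and 1124, 1175 and 1055 after the fragment. The rises were 1.94-fold (log2 0.96 ± 0.07, adjusted p = 7.09791e-11) and 3.13-fold (adjusted p = 4.11785e-15), and the fragment exceeded the whole antibody 1.61-fold (adjusted p = 7.28926e-07). After anti-IgG ADM read 1540, 1626 and 1492 against 247, 283 and 244 in Control 4 to 6, 6.02-fold higher (adjusted p = 8.83548e-19). The groups did not overlap, and the order of the means was anti-IgG, fragment, anti-IgM, controls.

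HK1, the hexokinase most cells use, rose in Z138 from 126, 90.2 and 106 to 234, 199 and 213 after anti-IgM (2.02-fold, log2 1.02 ± 0.12, adjusted p = 2.25152e-07), and was 1.81-fold and 1.77-fold higher after the fragment and anti-IgG. The inducible hexokinase HK2 went the other way. It read 745, 716 and 715 in Control 1 to 3, 415, 387 and 376 after anti-IgM and 395, 437 and 394 after the fragment, 1.85-fold and 1.78-fold lower. After anti-IgG it read 372, 316 and 385 against 638, 688 and 678 in Control 4 to 6, 1.87-fold lower with adjusted p = 3.44484e-08. No treated HK2 array reached a control. PFKM was 1.60-fold, 1.89-fold and 1.72-fold lower after anti-IgM, the fragment and anti-IgG, PKM, a pyruvate kinase, was 1.70-fold higher after anti-IgG and BNIP3L 1.66-fold lower.

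REC1 had the most listed genes past 2-fold, in a line where many genes moved. After anti-IgM 6 of 30 rose and 2 fell, 26.7% against 13% of all genes, after the fragment 5 rose and 2 fell, 23.3% against 14.6%, and after anti-IgG 4 rose and 2 fell, 20% against 11.2%. LT20 and the rituximab fragment each raised 2 and lowered 1, 10% against 5.47% and 3.14%. Whole rituximab moved none, beside 1.91% of all genes, and isotype none, beside 0.705%. At any fold the listed genes were close to all genes after anti-IgM, at 60% and 60%. Of the 26 listed genes above 100 in untreated arrays, 3 rose and 2 fell after anti-IgM, 19.2% against 11.7% of all such genes, and 2 rose and 2 fell after the fragment and after anti-IgG, 15.4% against 13.2% and 10.2%. REC1 had a single control triplicate, and isotype arrays stood between controls and the other antibodies for several genes.

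HK2 in REC1 read 474, 553 and 538 in the controls and 842, 887 and 910 after isotype, 1.69-fold higher with adjusted p = 3.76575e-05. It read 1486, 1485 and 1771 after anti-IgM, 1645, 1285 and 1574 after the fragment and 1352, 1235 and 1456 after anti-IgG, or 3.03-fold (log2 1.60 ± 0.11, adjusted p = 1.45491e-11), 2.87-fold and 2.58-fold. LT20 and the rituximab fragment gave 2.18-fold each and rituximab, at 1061, 1035 and 846, 1.87-fold. Only the third rituximab array lay within the isotype range, and all others exceeded it.

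PFKP, the platelet subunit of phosphofructokinase, the enzyme that commits glucose to glycolysis, also rose. Its signals were 542, 600 and 617 in the controls and 734, 980 and 891 after isotype (1.47-fold, adjusted p = 0.000311016). They were 1572, 1622 and 1405 after anti-IgM, 1551, 1780 and 1413 after the fragment and 1614, 1472 and 1413 after anti-IgG. All 9 arrays exceeded the isotype arrays, and the rises over the controls were 2.61-fold (adjusted p = 1.80959e-11), 2.69-fold and 2.56-fold. LT20, rituximab and its fragment gave 2.03-fold, 1.92-fold and 2.21-fold.

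BNIP3L, the partner of BNIP3 in mitophagy, fell in REC1. It read 143, 165 and 156 in the controls, 101, 100 and 101 after isotype (1.53-fold lower, adjusted p = 0.00126531), and 51.5, 51.0 and 54.7 after anti-IgM. That was 2.95-fold below the controls (log2 -1.56 ± 0.12, adjusted p = 1.31766e-10), and the fragment, anti-IgG, LT20 and the rituximab fragment gave 3.62-fold, 3.04-fold, 2.32-fold and 2.03-fold. A second BNIP3L probe set gave smaller falls of 1.49-fold, 1.97-fold and 1.38-fold for anti-IgM, the fragment and anti-IgG, the first with adjusted p = 0.0616. BNIP3 fell from 233, 219 and 222 to 89.4, 93.8 and 109 after anti-IgM, 2.31-fold with adjusted p = 7.71315e-10, and 2.13-fold and 2.19-fold after the fragment and anti-IgG. A second BNIP3 probe set gave 1.80-fold, 1.64-fold and 1.55-fold.

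ADM, ANKRD37 and VEGFA rose further above isotype in REC1. ADM read 69.9, 79.1 and 74.3 in the controls, 87.1, 94.4 and 91.6 after isotype and 222, 204 and 206 after anti-IgM, 2.83-fold over the controls (SE 0.10 on the log2 scale, adjusted p = 1.80254e-11), with 2.89-fold and 2.91-fold after the fragment and anti-IgG. ANKRD37 read 39.6, 42.6 and 43.1 in the controls, 69.0, 52.8 and 55.2 after isotype, 127, 120 and 106 after anti-IgM (2.82-fold, adjusted p = 8.23453e-10) and 134, 114 and 141 after the fragment (3.10-fold). VEGFA read 165, 165 and 158 in the controls, 161, 138.05 and 130 after isotype and 336, 335 and 361 after anti-IgM, 2.11-fold with adjusted p = 3.7227e-09, and was 1.56-fold and 1.82-fold higher after the fragment and anti-IgG. Control and anti-IgM arrays were well apart for all 3 genes.

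With the isotype arrays as the reference, the count in REC1 fell from 8 to 3 after anti-IgM, namely VEGFA, ADM and ANKRD37 at log2 changes of 1.27, 1.21 and 1.01. HK2 and PFKP were then at 0.84 and 0.83 and BNIP3 and BNIP3L at -0.96 and -0.95. The counts were 3 after the fragment, 2 after anti-IgG and 0 after LT20 and the rituximab fragment.

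**Figure D5:**
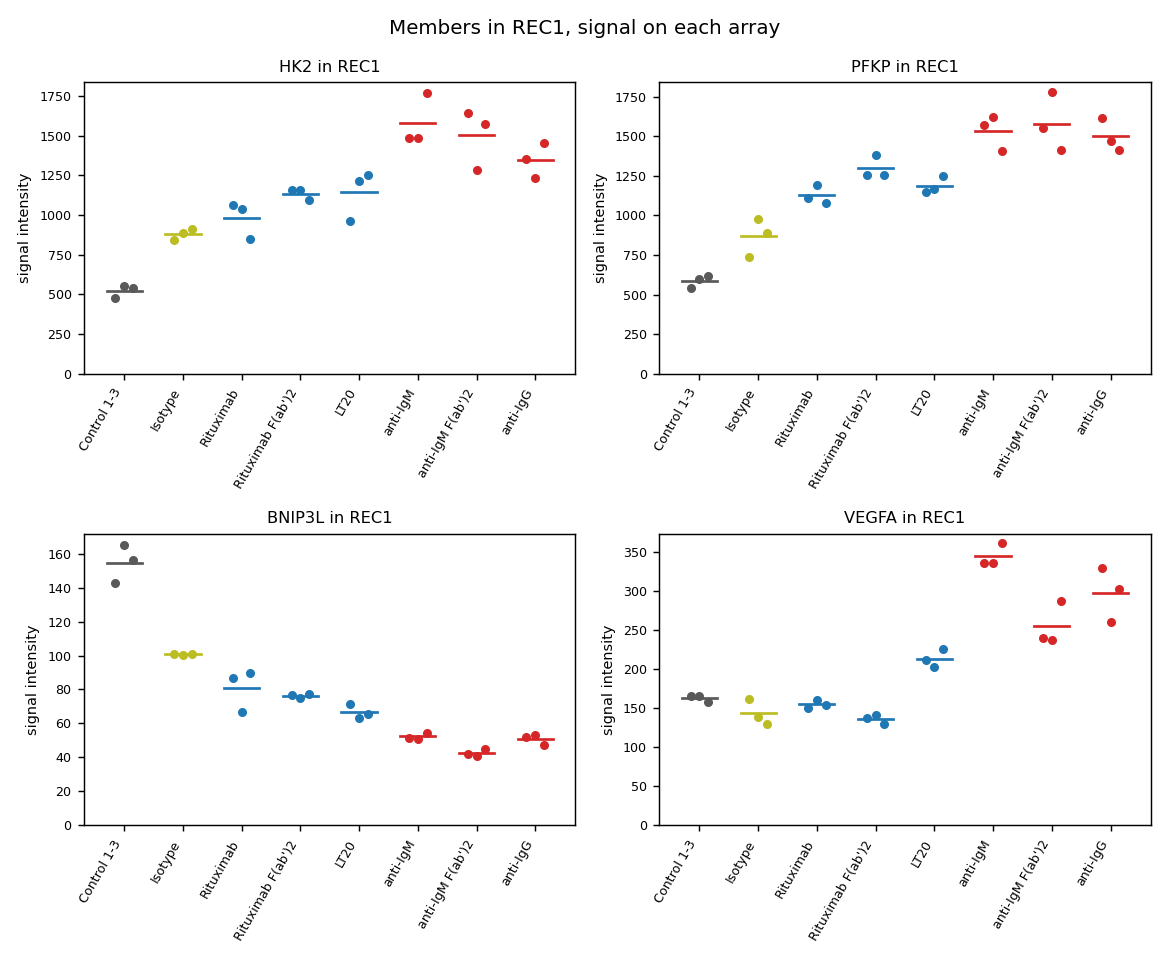
Signal intensity on each REC1 array (points) with the mean of 3 arrays as a bar, for HK2, PFKP, BNIP3L and VEGFA, by group, coloured as controls (grey), isotype (yellow), anti-CD20 (blue) and anti-receptor (red). HK2 and PFKP step up from controls through isotype and anti-CD20 to anti-receptor antibodies and BNIP3L steps down, whereas VEGFA after isotype, at 130 to 161, was not above the controls.

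Whole anti-IgM and its F(ab')2 fragment were also compared with each other. No listed gene differed past 2-fold in OciLy18, Z138 or REC1, where 0.0386%, 0.0395% and 0.103% of all genes did. The largest differences were the fragment's lower VEGFA in OciLy18 and higher ADM in Z138 given above.

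The same antibody was also compared between lines by the difference of the log2 changes. For anti-IgM, OciLy18 and REC1 differed past 2-fold in HK2, PFKP, ANKRD37 and BNIP3L, 4 of 34 genes or 11.8% against 9.86% of all genes. Z138 and REC1 differed in HK2, PFKP, ANKRD37, BNIP3L, VEGFA and SLC2A3, 6 of 34 or 17.6% against 12.1%, and OciLy18 and Z138 in NDRG1 and ADM, 2 of 34 or 5.88% against 2.46%. Among the genes counted, HK2 had the widest gap, with a log2 change of -0.89 in Z138 and 1.60 in REC1 (difference -2.48 ± 0.20, adjusted p = 5.44049e-18). For anti-IgG, SUDHL4 and REC1 differed in SLC2A3, BNIP3, BNIP3L, ADM and HK2, 14.7% against 9.6% of all genes. BNIP3 was higher in SUDHL4 (log2 0.64) and lower in REC1 (-1.13), a difference of 1.77 ± 0.11 with adjusted p = 1.55807e-23. With 16 added to each signal the SLC2A3 differences fell below 2-fold, to 0.88 for SUDHL4 against REC1 and 0.97 for Z138 against REC1, as did those of ADM between OciLy18 and Z138 (0.84) and ANKRD37 between Z138 and REC1 (-0.84). ADM had no group mean above 100 in SUDHL4, NDRG1 none in Z138 and ANKRD37 none in OciLy18, so no differing response is read from those gaps. In the lines compared, SLC2A3 and NDRG1 exceeded 100 in treated groups alone. The same held for ADM between SUDHL4 and REC1 and for ANKRD37 between OciLy18 and REC1. Shares that count these genes are descriptions.

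Most enzymes of the glycolytic chain stayed within a narrow range in all 21 treatments. Log2 changes ran from -0.15 to 0.18 for GAPDH, from -0.09 to 0.23 for LDHA and from -0.17 to 0.16 for LDHB, the lactate dehydrogenase subunits, and none of these 3 genes reached adjusted p below 0.05 in any treatment. PGK1 (phosphoglycerate kinase) ran from -0.10 to 0.25, TPI1 (triose phosphate isomerase) from -0.07 to 0.22, PGAM1 (phosphoglycerate mutase) from -0.15 to 0.15 and GPI (glucose phosphate isomerase) from -0.16 to 0.24. ALDOA, the main aldolase, ran from -0.10 to 0.31, PFKL, the liver subunit of phosphofructokinase, from -0.26 to 0.35 and PKM from -0.28 to 0.76. ENO1, the main enolase, ran from -0.08 to 0.23 and was higher at any fold after 9 treatments, of which rituximab and LT20 in SUDHL4 had the opposite sign against Control 4 to 6 (log2 -0.0081 and -0.0615). GAPDH, LDHA and LDHB were abundant, with group means of 3091 to 5041 for GAPDH, 3513 to 5416 for LDHA and 3828 to 5501 for LDHB, while the 99.9th percentile of an array lay between 4141 and 6896. The signals of these 3 genes thus sat near the top of the measured range. The highest group means of ALDOA, ENO1, PGK1, TPI1 and PGAM1 were 4462, 4779, 4185, 4072 and 3105. The 99th percentile of an array lay between 2424 and 3114, so these enzymes also sat high in that range.

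By the probe set used for each gene, no regulator passed 2-fold. HIF1A, the oxygen-regulated HIF subunit, had log2 changes from -0.29 to 0.39 at group means of 1077 to 3033. EGLN1, the main HIF prolyl hydroxylase, ran from -0.42 in REC1 to 0.77 after the fragment in Z138, where another of its probe sets passed 2-fold. PFKFB3, which makes an activator of phosphofructokinase, ran from -0.60 to 0.12. PDK1 and PDK3, kinases that shut off pyruvate dehydrogenase, ran from -0.32 to 0.70 and from -0.79 to 0.12, and PDK1 was 1.63-fold higher after the anti-IgM fragment in REC1.

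The 2 untreated triplicates of a line were compared with each other to show what separates controls that differ in no labelled treatment. Past 2-fold, 1 of 31 listed genes differed in SUDHL4 (3.23% against 1.77% of all genes) and none in OciLy18 or Z138 (0.566% and 0.881% of all genes). At any fold 51.6% of them differed in SUDHL4, 29% in OciLy18 and 25% in Z138, beside 47.6%, 33.9% and 40.2% of all genes. The gene past 2-fold was PDK3, at 325, 350 and 382 in Control 1 to 3 and 156, 153 and 170 in Control 4 to 6, 2.21-fold lower with adjusted p = 6.09064e-08. The other 3 of its probe sets that reached the level differed 1.07-fold to 1.28-fold between the triplicates and were 1.75-fold to 2.20-fold higher after rituximab and LT20, where the main one was at log2 0.02 and -0.36, and 1 further probe set was not tested in SUDHL4. The PDK3 probe sets thus disagreed, and no direction is given for the gene. VEGFA was higher in Control 4 to 6 in all 3 lines, 1.40-fold in SUDHL4, 1.88-fold in OciLy18 and 1.78-fold in Z138.

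Before any antibody the lines differed in many listed genes. Past 2-fold, 4 of 30 differed between SUDHL4 and OciLy18 (13.3% against 23.1% of all genes), 6 between SUDHL4 and Z138 (20% against 23%), 6 between SUDHL4 and REC1 (20% against 29.6%), 9 between OciLy18 and Z138 (30% against 17.8%), 9 between OciLy18 and REC1 (30% against 25.3%) and 7 between Z138 and REC1 (23.3% against 27%). P4HA2 averaged 748 ± 27.3 (SD, n = 3) in OciLy18 and 21.0 ± 2.13, 13.9 ± 3.47 and 4.49 ± 1.45 in SUDHL4, Z138 and REC1. ADM averaged 357 ± 25.5 in Z138 and 74.4, 18.2 and 6.56 in REC1, OciLy18 and SUDHL4. These are values of Control 1 to 3. PDK1 averaged 760 ± 53.7 in SUDHL4 and 289, 141 and 95.1 in OciLy18, Z138 and REC1. Each step was larger than the spread within these triplicates (adjusted p = 1.46444e-08 for the first, 5.38545e-07 for the second and 0.000134811 for the third). In Z138, PDK1 in Control 4 to 6 was at log2 -0.62 against Control 1 to 3. The step from Z138 to REC1 is therefore not read apart from the triplicate used.

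ALDOC averaged 428 in OciLy18, 107 in REC1, 81.7 in SUDHL4 and 30.8 in Z138. REC1 had the lowest PFKM, BNIP3 and BNIP3L, at 318, 224 and 155, against 1330, 1093 and 680 in SUDHL4, or 4.19-fold, 4.87-fold and 4.38-fold. BNIP3 in Control 1 to 3 of OciLy18 and Z138, at 612 and 593, did not differ beyond the spread (adjusted p = 0.542838). In OciLy18 Control 4 to 6 BNIP3 was at log2 0.91 against Control 1 to 3, so this likeness holds for Control 1 to 3 alone. HK1 averaged 742 in SUDHL4, 387 in OciLy18, 357 in REC1 and 107 in Z138, and the OciLy18 and REC1 values did not differ beyond theirs (adjusted p = 0.865817). OciLy18, Z138 and the other lines were grown in 3 different media, with SUDHL4 and REC1 in the same one, so line and medium cannot be told apart except between those 2.

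Other genes of the same pathways, outside the 40, also held a few large changes. Of 12 further hypoxia targets tested in REC1, 3 rose past 2-fold after anti-IgM, 2 after the fragment and 3 after anti-IgG, 25%, 16.7% and 25% against 13%, 14.6% and 11.2% of all genes. None fell past 2-fold, and at any fold 2, 2 and 4 were lower. BHLHE40, a transcriptional repressor, rose 3.11-fold, 3.82-fold and 2.51-fold there and 10.5-fold, 9.86-fold and 3.59-fold in OciLy18, and MXI1, another MAX-binding repressor, rose 2.26-fold, 2.37-fold and 2.35-fold in REC1 and was 4.17-fold lower after anti-IgG in Z138. In SUDHL4 INSIG2, a brake on sterol synthesis, rose 3.22-fold, 2.95-fold and 5.04-fold after rituximab, LT20 and anti-IgG, and HILPDA, a lipid-droplet protein, rose 2.60-fold and 2.20-fold after the first 2. Among the remaining glucose carriers SLC2A6 was 3.89-fold, 3.42-fold and 3.04-fold lower in REC1 after anti-IgM, the fragment and anti-IgG and SLC2A5 2.77-fold, 2.73-fold and 3.87-fold lower in SUDHL4 after rituximab, LT20 and anti-IgG, opposite in sign to SLC2A3. PDP1, the phosphatase that reactivates pyruvate dehydrogenase, rose 2.55-fold, 2.14-fold and 3.30-fold in SUDHL4. After no antibody did any of the 13 genes tested of the tricarboxylic acid cycle or the 6 of the pentose phosphate pathway pass 2-fold in any line.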

How the data were processed

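RNA of 4 established lymphoma lines was measured on 96 Affymetrix arrays. The authors computed a MAS5 signal intensity for each probe set with the GCOS software and scaled every array to the same total before the values were deposited, and versions and scaling target are not given in the sources used here. The authors' own group means and change factors were also deposited and were not used.

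Signals below 1 were set to 1 and log2 was taken. Each gene was represented by the probe set with the highest mean over the 96 arrays. The 24 arrays of a line were modelled together in limma 3.58.1 (R 4.3.3), each group with its own mean and the variance following a trend with level. Only probe sets with a group mean above 100 entered. P-values were adjusted by Benjamini-Hochberg over all probe sets tested, separately in each comparison. Models across lines gave the untreated comparisons and the differences between lines. The filter follows the study's limits of a mean above 100 and a fold above 2. The scripts were tested on simulated data. The 40 genes and the further gene lists were chosen with earlier results of these data known, so no p-value over a list is given. Every listed gene is named. Genes past 2-fold are given with values of each array or, in some comparisons, with the fold alone. Where fewer than 6 passed, array values are given for part of the genes with the largest changes at adjusted p below 0.05. Up to 4 further pathway genes per list and comparison are named. Promoter windows came from a RefSeq table of GRCh38.p14. The number of arrays limits the precision, and no detection calls were used. Alternatives were the other control triplicate, all 6 controls, isotype arrays as reference, other limits of level and fold, 16 added before log2, quantile normalization, no filter, no trend, a replicate block, leaving out each array and, chosen after seeing the data, counting only genes above 100 in an untreated group.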

Additional observations from a re-analysis of the deposited data

Results flagged for a closer look

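The changes below are differences between 2 lines in their log2 change after the same antibody, tested in a model over the 4 lines. Each had an adjusted p, over all probe sets tested, below 0.05 and a gap past 2-fold. They were singled out because the lines differed by that test, and no cause was tested.

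After anti-IgG, SUDHL4 minus REC1, the difference was 1.91 for SLC2A3 (4.38 and 2.47), 1.77 for BNIP3 (0.64 and -1.13), 1.59 for BNIP3L (-0.01 and -1.60), -1.18 for ADM (0.36 and 1.54) and -1.10 for HK2 (0.27 and 1.37), with the log2 change of each line in that order in parentheses. After anti-IgM, OciLy18 minus REC1, the difference was -1.63 for HK2 (-0.03 and 1.60), -1.34 for PFKP (0.04 and 1.39), -1.34 for ANKRD37 (0.15 and 1.495) and 1.26 for BNIP3L (-0.30 and -1.56). After anti-IgM, OciLy18 minus Z138, the difference was 2.30 for NDRG1 (2.12 and -0.18) and 1.52 for ADM (2.48 and 0.96). After anti-IgM, Z138 minus REC1, the difference was -2.48 for HK2 (-0.89 and 1.60), 1.71 for SLC2A3 (4.02 and 2.31), 1.37 for BNIP3L (-0.19 and -1.56), -1.29 for PFKP (0.10 and 1.39), -1.26 for VEGFA (-0.18 and 1.08) and -1.09 for ANKRD37 (0.40 and 1.495).

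The SUDHL4 value uses Control 4 to 6 and the REC1 value the single REC1 triplicate. In REC1 the isotype arrays moved in the same direction as anti-IgM for HK2, PFKP, BNIP3L and SLC2A3, at 1.69-fold higher, 1.47-fold higher, 1.53-fold lower and 3.03-fold higher. For ANKRD37 and ADM the REC1 isotype arrays also lay above the controls. Against isotype in REC1, ANKRD37 was at log2 1.01 after anti-IgM, and ADM and BNIP3 were at 1.25 and -0.89 after anti-IgG. The SLC2A3 and ADM differences involve control signals under 100, and had SEs of 0.52 and 0.49 on the log2 scale, with adjusted p of 0.00218937 for SLC2A3 and 0.0476351 for ADM after anti-IgG. With 16 added to each signal the SLC2A3 differences were 0.88 after anti-IgG and 0.97 after anti-IgM, below 2-fold, that of ADM between OciLy18 and Z138 was 0.84 and that of ANKRD37 between Z138 and REC1 -0.84. ADM had no group mean above 100 in SUDHL4, NDRG1 none in Z138 and ANKRD37 none in OciLy18, and no differing response is read from those values.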

How the results depend on the processing

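The number of listed genes past 2-fold stayed within 1.5 times its value for 557 combinations of comparison and alternative and moved further in 69. Of the values of single genes recomputed under every alternative, 2501 kept direction and side of the threshold, 146 missed the threshold and 5 changed sign. Those sign changes came with the other control triplicate, in SUDHL4 for BNIP3L after anti-IgM (log2 0.0302) and for PDK1 (0.0602) and PDK3 (0.53) after the fragment, and in Z138 for ADM after LT20 (0.11) and rituximab (0.17). Over all 151 listed-gene differences at any fold in the lines with a second triplicate, it turned the sign of 19, among them VEGFA after anti-IgM in OciLy18 (-0.15). That triplicate gave counts of 9 after rituximab, 6 after LT20, 1 after isotype and 1 after the fragment in SUDHL4. In OciLy18 it gave 2 after LT20, 1 after rituximab and 2 after anti-IgG, and Z138 had 4 after each of anti-IgM, the fragment and anti-IgG. With all 6 controls the count was 0 after LT20 in OciLy18 and 1 after the fragment in SUDHL4. With isotype as reference it was 2 after anti-IgG in OciLy18, 5 after anti-IgG in SUDHL4 and, in REC1, 3 after anti-IgM, 3 after the fragment, 2 after anti-IgG, 0 after LT20 and 0 after the rituximab fragment.

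With a fold limit of 1.5 the counts were 8 after rituximab, 6 after LT20, 6 after anti-IgG, 2 after the fragment and 3 between triplicates in SUDHL4. They were 8 after anti-IgM, 9 after the fragment, 2 after LT20, 1 after rituximab, 2 between triplicates and 1 between fragment and whole antibody in OciLy18, and 5, 7 and 7 after anti-IgM, the fragment and anti-IgG, 2 between triplicates and 1 between fragment and whole antibody in Z138. In REC1 they were 13 after the fragment, 10 after anti-IgG, 6 after LT20, 6 after the rituximab fragment, 5 after rituximab and 2 after isotype. A level of 200 gave 3 after rituximab and 1 after anti-IgG in SUDHL4. After anti-IgM and the fragment it gave 1 and 2 in OciLy18, while Z138 had 1 for each and REC1 had 5 and 4. With 16 added the counts were 3 after rituximab in SUDHL4 and 1 after anti-IgM in Z138, and quantile normalization also gave 1 there.

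Counting only genes above 100 in untreated arrays, chosen after seeing the data, gave 2 after rituximab and 1 after LT20 in SUDHL4, 1 after anti-IgM and 2 after the fragment in OciLy18, 1 after each of anti-IgM, the fragment and anti-IgG in Z138, and 5 after anti-IgM and 4 after the fragment in REC1.

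Leaving out 1 array at a time gave 3 to 5 genes after rituximab in SUDHL4 (3 without rituximab array 3), 1 to 2 after LT20 in OciLy18 (2 without Control 1), 1 to 2 after anti-IgG there (2 without anti-IgG array 1 or 2), 1 to 3 after anti-IgM in Z138 (without Control 2 or anti-IgM array 1), 0 to 2 after rituximab in REC1 (2 without its array 3) and 1 to 3 for the difference between OciLy18 and Z138 after anti-IgM. Same-numbered arrays did not pair. Every correlation of their deviations exceeded 0.1 in 2 of 22 comparisons only, values ran from -0.337 to 0.358, and 23 of 66 arrays were most like the array of their own number. With the replicate block the count after rituximab in SUDHL4 was 5 and after anti-IgM in REC1 8, and no count moved by more than 1.5 times. The cause of these changes was not tested. Signals under 100 limit SLC2A3, MXD3, ENO2 and ADM in several lines.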
